A study of Homo sapiens with 21 samples.

Results

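MAK683 was compared with tazemetostat in tumours of HT1376, a cell line from a human bladder carcinoma, grown subcutaneously in immunodeficient mice. The comparison used every library whose treatment label is MAK683 (3) or tazemetostat (3), which is 6 of the 21 RNA-seq libraries of the series, and the 3 vehicle libraries give the common baseline. The hosts were female CB17 SCID mice aged 6 to 8 weeks, animals that lack mature T and B cells but keep macrophages, granulocytes, natural killer cells and stroma. MAK683 tumours came from mice given MAK683 by mouth at 75 mg/kg once a day, and tazemetostat tumours from mice given tazemetostat at the same dose, route and schedule. Vehicle tumours came from mice given vehicle in place of a compound. In all 3 groups dosing began 11 to 15 days after inoculation, with tumours averaging 139 to 160 mm3. Tumours were collected on day 15, 1 hour after a dose. What day 15 is counted from is not given here, so the length of dosing cannot be read from these days. Whether each library is from an animal of its own is not stated, so the p-values rest on a spread between libraries that may be technical. All groups share 1 cell line, and the labels give the same dose in mg/kg for both compounds, not the exposure or target occupancy reached.

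Polycomb repressive complex 2 (PRC2) silences genes by placing methyl groups on lysine 27 of histone H3. Its catalytic subunit is EZH2 or EZH1. EED reads the finished mark and stimulates the enzyme, and SUZ12 holds the complex together. Tazemetostat competes with the methyl donor in the catalytic site of EZH2. MAK683 is known to bind EED at the pocket that reads the mark, although the series describes all of its compounds as EZH2 inhibitors. PRC2 is best known for silencing developmental regulators, and in tumours also genes of antigen presentation and chemokines.

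Library totals were 15890457, 20590186 and 18145699 counts for MAK683, 25339162, 25771778 and 24497892 for tazemetostat, and 23259170, 25059827 and 22371908 for vehicle, so the MAK683 libraries were the shallowest of the 3 groups. Levels are given as CPM, counts divided by the scaled library total. In the smallest of these libraries a floor of 3 counts equals 0.189 CPM, which a gene with no count could still reach. Counting error alone is covered by this floor and by each counting interval. No 2 libraries held the same values. KRT5, a basal keratin known in this kind of tumour, was at 2732 to 3894 CPM in MAK683 libraries, 2813 to 3226 CPM in tazemetostat libraries and 2920 to 3322 CPM in vehicle libraries. Host skin could also supply this keratin, so its level alone does not identify HT1376 cells. CPM values are not divided by gene length, so they compare libraries and not genes. No source used here says whether mouse reads were removed.

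The question was whether an inhibitor that acts through EED and one that acts at the catalytic site gave the same expression profile at the same dose. The profiles differed. Among 21958 tested genes, 1549 (7.05%) were higher and 471 (2.15%) lower with MAK683 than with tazemetostat, by the edgeR quasi-likelihood test at an adjusted p under 0.05, which is what "called", "rose" and "fell" mean below. The higher calls were larger: 1191 were at least 2-fold higher and 80 at least 2-fold lower, and the median log2 fold change was 1.54 among higher calls and -0.61 among lower calls, against -0.01 over all tested genes. The libraries of the 2 compounds did not overlap, with MAK683 higher, for 3555 genes (16.2%) and, with MAK683 lower, for 2917 genes (13.3%). For 13958 genes (63.6%) the 95% interval of the fold change lay within 2-fold in either direction, which bounds the difference between the compounds for those genes. Leaving out any 1 of the 6 libraries left between 1004 (without tazemetostat library 3) and 1300 calls higher. The lower calls numbered 199 without MAK683 library 1 or tazemetostat library 2, 217 without MAK683 library 3, 241 without tazemetostat library 1, 266 without tazemetostat library 3 and 337 without MAK683 library 2.

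Against the shared vehicle libraries, MAK683 gave 2279 genes higher (10.4%) and 1135 lower (5.17%). Tazemetostat gave 0 higher and 0 lower by edgeR, with a smallest adjusted p of 0.0814, for MMP10. Of 21958 genes, 648 had an unadjusted p under 0.05 in that test, 492 higher and 156 lower. That is a smaller share than this threshold passes when no gene differs, so the test was conservative here. Its 0 calls do not show that tazemetostat left expression unchanged. Limma-voom also called 0 and DESeq2 called 5, all higher. A fit of the tazemetostat and vehicle libraries alone called 11 higher and 1 lower. Because these comparisons and the direct one share libraries, their values are given side by side below and not correlated.

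The direction of the calls differed with the level of a gene in vehicle tumours. Among genes at 5 to 50 CPM in vehicle, 5.26% rose and 3.11% fell, and at 50 CPM or more 0.882% rose and 3.88% fell. At 0.5 to 5 CPM, 9.42% rose and 1.06% fell. Below 0.5 CPM, 13.9% rose and 0.0746% fell, but a gene that low passed the low-count filter only if some other group was higher, so that bin favours rises. By gene type, 8.46% of protein-coding genes rose and 2.61% fell, against 4.72% and 1.74% of long intergenic RNA genes. Of the genes that rose, 32.7% had a directly neighbouring tested gene that also rose, against 14.4% of all tested genes. Of the genes that fell, 13.8% had a neighbour that fell, against 4.38%.

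**Figure D1:**
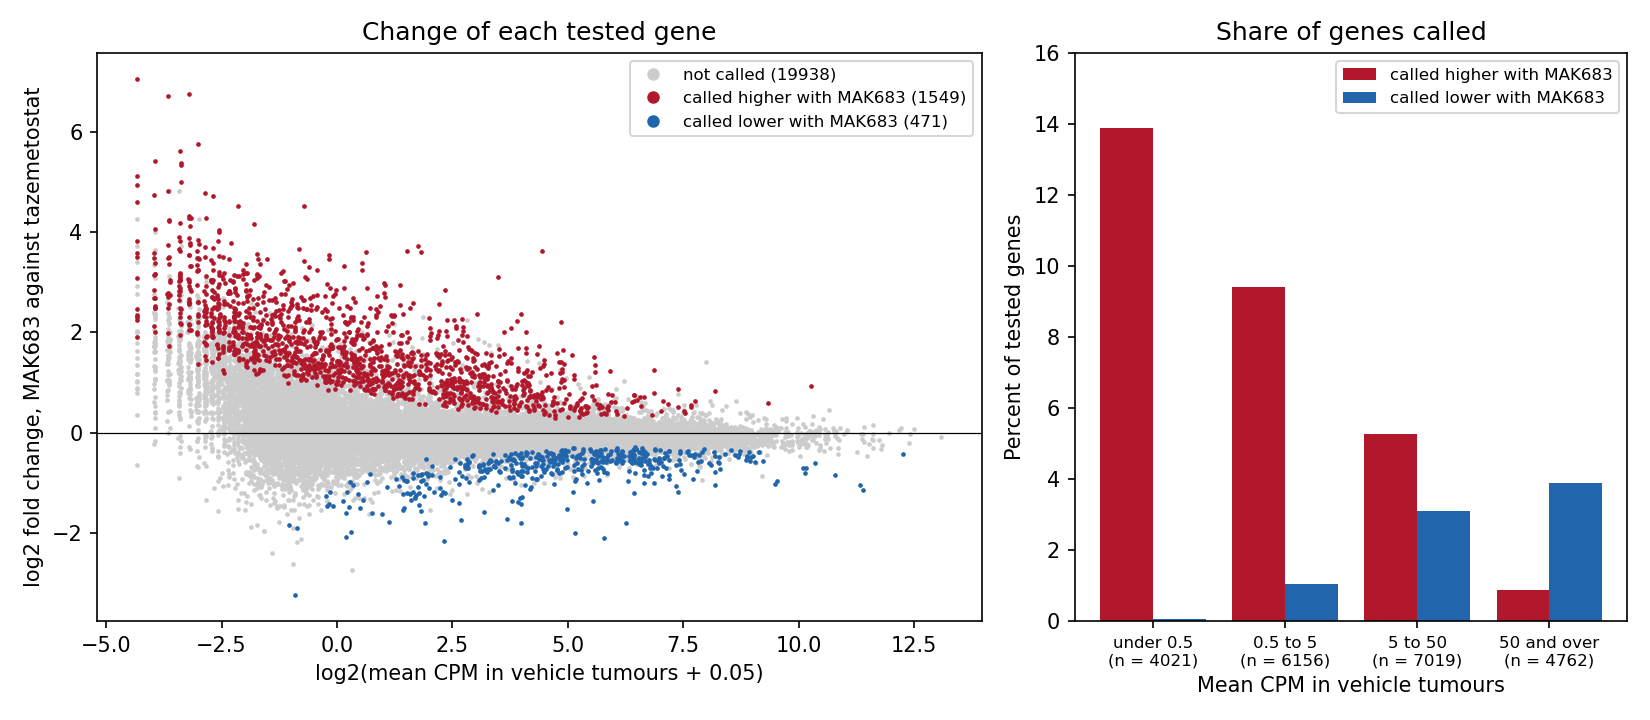
Left, the log2 fold change of each of 21958 genes for MAK683 against tazemetostat (vertical axis) by its mean CPM in vehicle tumours (horizontal axis, log2 scale with 0.05 CPM added); red genes were called higher with MAK683 (1549), blue genes lower (471), grey genes not called. Right, the percent of tested genes called in 4 bins of vehicle level, from 13.9% higher below 0.5 CPM to 3.88% lower at 50 CPM and over. Rises lie mostly among genes low in vehicle and falls mostly among higher ones.

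Transcripts of the target complex differed by less than 2-fold between the compounds. EZH2 stood at 91.1, 84.9 and 94.4 CPM in MAK683 libraries, against 79.4, 82.5 and 76.4 CPM in tazemetostat libraries and 72.6, 71.3 and 73.5 CPM in vehicle libraries. All MAK683 libraries were above all tazemetostat libraries, but the log2 fold change was 0.18 ± 0.10 (SE; 95% interval -0.03 to 0.39, adjusted p 0.329). EED, the subunit MAK683 binds, differed by 0.16 ± 0.13 (adjusted p 0.577) and SUZ12 by 0.06 (adjusted p 0.915). EZH1 stood at 38.5, 41.7 and 36.9 CPM with MAK683, against 46.1, 53.5 and 49.1 CPM with tazemetostat (log2 fold change -0.34 ± 0.11, adjusted p 0.0501), without overlap and just short of a call. DESeq2, and edgeR with a skeletal muscle covariate, did call EZH1 lower. Of 6 core subunits, 0 were called by edgeR or limma-voom, EZH1 alone was called by DESeq2 and had an unadjusted p under 0.05, and all 6 intervals lay within 2-fold. ARID1A, a SWI/SNF subunit whose loss has been linked to EZH2 inhibitor response, differed by 0.21 (adjusted p 0.614). SWI/SNF, the remodeller that opposes polycomb, had 1 of 25 members called: DPF1, whose call held in only 1 of the 6 fits without 1 library, that without MAK683 library 1.

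Among 10 accessory subunits of PRC2, EZHIP, an inhibitor of the complex, stood at 6.36, 5.81 and 5.49 CPM with MAK683, against 2.39, 1.81 and 2.67 CPM with tazemetostat and 0.994, 1.72 and 1.3 CPM with vehicle (log2 fold change 1.36 ± 0.28, adjusted p 0.00262). EPOP also rose (0.59), a call lost without MAK683 library 3 or any tazemetostat library, and SKIDA1 fell (-0.68), a call lost without MAK683 library 1 or 3 or tazemetostat library 1 or 2. Polycomb repressive complex 1 (PRC1) binds the methyl mark through CBX proteins, and 6 of its 25 tested genes rose (24%, against 7.05% of all genes), with 0 falling. CBX2 stood at 24.0, 22.3 and 23.7 CPM with MAK683, against 7.14, 6.19 and 6.68 CPM with tazemetostat and 6.01, 6.79 and 7.07 CPM with vehicle. Tazemetostat and vehicle libraries overlapped, MAK683 libraries lay far above both, and the log2 fold change between the compounds was 1.81 ± 0.21 (adjusted p 8e-06). SCML2, a PRC1-associated protein, rose by 1.91 ± 0.27 and BCORL1, a co-repressor of the variant complexes, by 1.19 ± 0.21. CBX8 (0.65) and CBX6 (0.49) rose by less. Without tazemetostat library 2 the PRC1 count was 4 and CBX6 was no longer called, and CBX8 lost its call without MAK683 library 1, MAK683 library 2 or tazemetostat library 1. DNMT3B, which lays down new DNA methylation, was the 1 called gene of 8 in its list (0.96 ± 0.14, adjusted p 8.38e-05). Of 15 H3K27 demethylases and H3K27, H3K36 and H3K4 writers, 0 were called by edgeR, DESeq2 or limma-voom, 0 had an unadjusted p under 0.05, and all 15 intervals lay within 2-fold.

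Genes of MHC class II antigen presentation, which show peptides to CD4 T cells, gave the highest share of calls among the tumour gene lists. Of 20, 13 rose (65%, against 7.05% of all genes) and 0 fell, with a median log2 fold change of 3.51. The same genes had a median of 3.90 for MAK683 against vehicle (15 of 20 called higher, against 10.4% of all genes) and 0.38 for tazemetostat against vehicle (0 called; smallest adjusted p of the set 1). Class II promoters are known for a conserved Y box, an inverted CCAAT element (ATTGG) bound by the factor NF-Y. ATTGG on either strand occurred in the 250 bases before the start of 14 of the 17 class II genes with a promoter in the RefSeq table used (82.4%), against 11240 of 35116 promoters of that length (32%). The first share takes 1 promoter per gene and the second every promoter listed. Carriers included HLA-DQB2, HLA-DOB, IFI30 and RFX5, which were not called. The HLA genes among the carriers are related copies, so they are not independent. The promoters printed here run 5′ to 3′ on the gene's own strand, from RefSeq on GRCh38.p14, with that motif or its reverse complement in capitals. They are those of HLA-DQA1 and HLA-DOA, which had the largest rises of the list, and of CD74, a single-copy gene outside the MHC. The capitals begin at -222 and -68 from the start in HLA-DQA1 (chr6:32637156-32637405, plus strand), at -67 in HLA-DOA (chr6:33009592-33009841, minus strand) and at -53 in CD74 (chr5:150412911-150413160, minus strand). A match describes these letters and not binding.
HLA-DQA1: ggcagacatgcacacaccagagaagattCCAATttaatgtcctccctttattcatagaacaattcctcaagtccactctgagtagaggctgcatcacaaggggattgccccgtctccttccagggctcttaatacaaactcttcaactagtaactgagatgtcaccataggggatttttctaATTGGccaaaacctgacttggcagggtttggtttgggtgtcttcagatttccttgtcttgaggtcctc
HLA-DOA: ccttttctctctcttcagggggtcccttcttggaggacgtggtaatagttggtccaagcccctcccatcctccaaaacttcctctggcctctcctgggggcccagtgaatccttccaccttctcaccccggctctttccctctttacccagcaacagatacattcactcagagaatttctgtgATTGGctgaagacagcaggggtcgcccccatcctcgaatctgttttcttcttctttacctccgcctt
CD74: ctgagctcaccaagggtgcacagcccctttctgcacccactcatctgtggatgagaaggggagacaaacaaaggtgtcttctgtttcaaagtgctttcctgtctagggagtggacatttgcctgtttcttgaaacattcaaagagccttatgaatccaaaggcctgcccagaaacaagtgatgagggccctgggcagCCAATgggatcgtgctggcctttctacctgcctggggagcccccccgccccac

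CIITA (ENSG00000179583), the master activator of class II transcription, had 37.5, 20.7 and 28.2 CPM in MAK683 libraries, against 7.46, 6.07 and 4.61 CPM in tazemetostat libraries and 4.79, 5.86 and 4.88 CPM in vehicle libraries. The lowest MAK683 library was well above the highest of the other 6, whose ranges overlapped. The log2 fold change between the compounds was 2.25 ± 0.29 (adjusted p 2.62e-05). CD74, the invariant chain that escorts class II molecules to the endosome, had 379, 259 and 314 CPM with MAK683, against 27.2, 26.0 and 24.1 CPM with tazemetostat and 17.9, 32.0 and 15.4 CPM with vehicle (3.62 ± 0.43, adjusted p 2.83e-05). Its tazemetostat libraries lay inside the vehicle range.

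Of the peptide-binding chains, HLA-DRA had 94.5, 57.7 and 66.5 CPM with MAK683, against 5.66, 6.51 and 4.22 CPM with tazemetostat and 3.25, 4.36 and 2.37 CPM with vehicle (3.73 ± 0.47, adjusted p 5.1e-05). HLA-DQA1, whose promoter is shown above, had 29.6, 16 and 19.1 CPM with MAK683, against 1.40, 0.804 and 0.560 CPM with tazemetostat and 0.362, 0.754 and 0.558 CPM with vehicle (4.53 ± 0.53, adjusted p 2.22e-05). In both genes MAK683 library 1 was the highest and library 2 the lowest of its group, as in CIITA and CD74. HLA-DPA1 (3.60 ± 0.39), HLA-DPB1 (3.55 ± 0.36) and HLA-DQB1 (3.62 ± 0.41) moved by similar amounts. HLA-DOA, part of the chaperone that limits peptide exchange, had 8.27, 3.57 and 6.65 CPM with MAK683, against 0.16, 0.281 and 0.345 CPM with tazemetostat and 0.226, 0.168 and 0.140 CPM with vehicle (4.53 ± 0.54, adjusted p 1.33e-05). HLA-DRB5 was also among the largest rises (4.33 ± 0.61), but its reads can be split with near-identical DRB genes, so its own value is uncertain.

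The 7 members not called were HLA-DQB2, HLA-DOB, the protease gene CTSS, the reductase gene IFI30 and the 3 RFX complex genes RFX5, RFXANK and RFXAP. RFX5, a constitutive DNA-binding partner of CIITA, differed by 0.43 (adjusted p 0.0543). The number called stayed between 12 and 14 when any 1 of the 6 libraries was left out. Macrophages and lymphocytes also make class II molecules. The summed CPM of 18 macrophage and granulocyte markers was 3603 to 4887 in MAK683 libraries, against 3838 to 4431 in tazemetostat libraries and 2724 to 3951 in vehicle libraries. Such a sum is weighted to its most abundant members. Of 17 tested, 4 were called higher (23.5%, against 7.05% of all genes): CD163, ADGRE1, ITGAX and, in the full fit but in none without 1 library, LAPTM5. The median log2 fold change of the 17 was 0.41, and 12 were above 0. In 6 the MAK683 libraries lay wholly above the tazemetostat libraries (against 16.2% of all genes), and in 0 wholly below (against 13.3%). Of the lymphocyte markers, CD2, MS4A1 and CD79A were below 0.1 CPM in all 6 libraries of the compounds, and the summed level was 8.31 to 9.88 CPM with MAK683, against 4.61 to 5.95 CPM with tazemetostat and 3.95 to 4.7 CPM with vehicle. The part of such cells in the class II rise was not tested, and in whole tumours more cells of a type and more RNA per cell cannot be told apart.

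**Figure D2:**
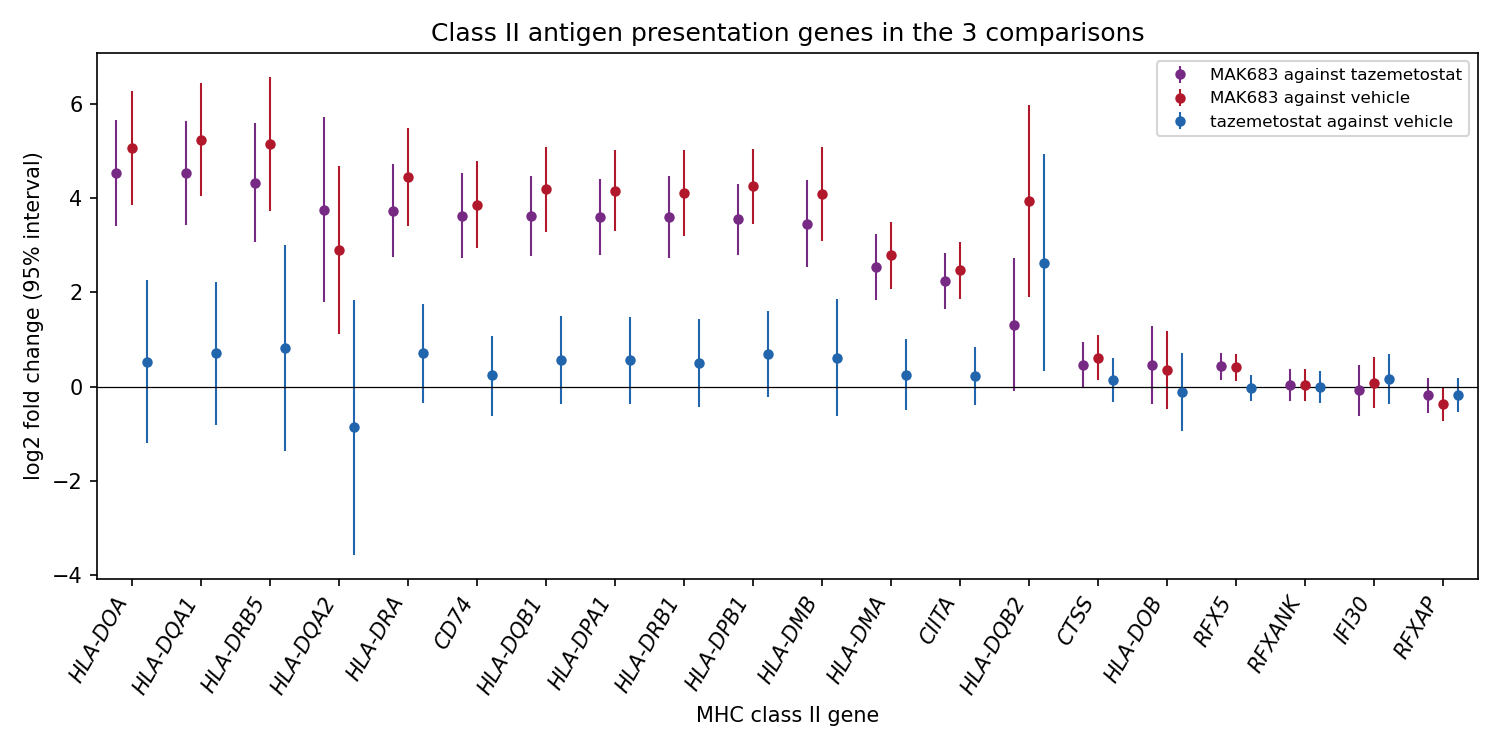
Log2 fold change (vertical axis) with its 95% interval for 20 MHC class II presentation genes (horizontal axis) in MAK683 against tazemetostat (purple), MAK683 against vehicle (red) and tazemetostat against vehicle (blue), n = 3 per group. The 13 genes called between the compounds have purple points from CIITA at 2.25 to HLA-DOA and HLA-DQA1 at 4.53, while the blue points of the same genes lie near 0 or have intervals that cross it.

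Chemokine and cytokine genes, which recruit and instruct leukocytes, had 26 of 59 members higher (44.1%, against 7.05% of all genes) and 0 lower, with a median log2 fold change of 1.33. Without any 1 library the count was 19 to 24. Against vehicle 34 of the 59 rose with MAK683, as did 10.4% of all genes, and 0 rose with tazemetostat. Several of these genes are known targets of NF-kB, whose binding element often begins with GGGAATT. Those letters occurred on either strand in 7 of the 43 members with a promoter in the table (16.3%; CXCL1, CXCL2, CXCL3, CXCL5, CXCL6, CXCL9 and IL1A) and in 1106 of 35116 promoters overall (3.15%). The first share takes 1 promoter per gene and the second every promoter listed. Related genes of the CXCL cluster arose by duplication, so these carriers are not independent. The promoters of CXCL1 (chr4:73869143-73869392, plus strand, letters at -79) and CXCL5 (chr4:73998678-73998927, minus strand, letters at -91) are printed with GGGAATT in capitals, as 2 carriers with large rises.
CXCL1: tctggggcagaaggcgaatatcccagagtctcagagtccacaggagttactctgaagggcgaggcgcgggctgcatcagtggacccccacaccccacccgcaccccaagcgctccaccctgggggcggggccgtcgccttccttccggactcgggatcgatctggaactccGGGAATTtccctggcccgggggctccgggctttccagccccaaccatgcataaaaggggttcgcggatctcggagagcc
CXCL5: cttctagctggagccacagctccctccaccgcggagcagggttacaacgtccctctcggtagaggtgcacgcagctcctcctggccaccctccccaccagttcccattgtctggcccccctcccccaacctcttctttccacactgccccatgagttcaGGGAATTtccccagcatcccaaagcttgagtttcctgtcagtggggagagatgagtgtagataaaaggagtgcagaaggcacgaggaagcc

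CXCL1, a neutrophil attractant, had 15.1, 9.82 and 10.6 CPM in MAK683 libraries, against 2.03, 1.45 and 1.42 CPM in tazemetostat libraries and 1.22, 0.586 and 1.02 CPM in vehicle libraries (log2 fold change between the compounds 2.85 ± 0.32, adjusted p 6.37e-06). CXCL5, of the same class, had 14.8, 12.1 and 16.5 CPM with MAK683, against 2.03, 1.21 and 1.29 CPM with tazemetostat and 1.85, 1.38 and 0.977 CPM with vehicle (3.25 ± 0.46, adjusted p 0.000109). In both genes every MAK683 library was several times above every other library. Among the other CXCL carriers, CXCL3 was called at 1.00 ± 0.31 (adjusted p 0.0453) but in none of the 6 fits without 1 library, CXCL6 differed by 1.6 at under 0.5 CPM (adjusted p 0.0964), and CXCL2 differed by 0.74 ± 0.32 (adjusted p 0.181). Outside that cluster, IL1A differed by 0.59 ± 0.21 (adjusted p 0.0919). CXCL9, an attractant of T cells, rose at under 1 CPM, with 26 counts in the MAK683 libraries together and 1 in the tazemetostat libraries, a ratio of 34.7 with a 95% counting interval of 5.71 to 1424.

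CXCL10, an interferon-induced attractant of T cells, had 27.2, 16.8 and 16.6 CPM with MAK683, against 3.19, 2.25 and 2.33 CPM with tazemetostat and 0.768, 0.922 and 0.744 CPM with vehicle (2.96 ± 0.40, adjusted p 8.38e-05). Its tazemetostat libraries lay above its vehicle libraries, a difference of 1.66 ± 0.52 that was not called (adjusted p 1). CSF1, the macrophage growth factor, rose by 1.93 ± 0.22 and LIF, an interleukin-6 family cytokine, by 1.89 ± 0.27. CCL4 (4.28 ± 0.77) and CCL3 (4.0 ± 0.77), macrophage inflammatory proteins with near-identical gene copies, were among the largest rises but stood at no more than 4.2 CPM in any library.

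Genes of NF-kB subunits and feedback belong to a pathway that drives such chemokines. Of 25, 5 were higher (20%, against 7.05% of all genes) and 0 lower. CD83, an activation marker, rose by 1.45 ± 0.22. SOD2, the mitochondrial superoxide dismutase, had 412, 242 and 340 CPM with MAK683, against 148, 146 and 127 CPM with tazemetostat and 114, 112 and 123 CPM with vehicle (1.24 ± 0.21, adjusted p 0.000501). ICAM1, a leukocyte adhesion molecule, rose by 1.22 ± 0.24. TNFAIP6 (2.51; lost without MAK683 library 1 or tazemetostat library 2 or 3) and IRAK2 (0.60; lost without MAK683 library 1 or 3 or tazemetostat library 3) completed the 5, and the count was 3 without MAK683 library 1 or tazemetostat library 3.

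MHC class I genes, which present peptides to CD8 T cells, moved less than class II. Of 24, 9 rose (37.5%, against 7.05% of all genes) and 0 fell, with a median of 0.28. HLA-B had 2739, 2662 and 2179 CPM in MAK683 libraries, against 1283, 1510 and 1179 CPM in tazemetostat libraries and 1185, 1531 and 989 CPM in vehicle libraries (0.93 ± 0.20, adjusted p 0.00385). The immunoproteasome subunit gene PSMB9 rose by 0.70 ± 0.14, the peptide transporter gene TAP1 by 0.65 ± 0.15, and MICB, a stress ligand of natural killer cells, by 1.58 ± 0.21. The count of class I genes was 5 without tazemetostat library 2 or 3 and 6 without MAK683 library 2 or tazemetostat library 1. Among ligands and receptors of natural killer and death signalling, 3 of 24 rose (12.5%, against 7.05% of all genes). These were MICB, ULBP2 (1.01 ± 0.19) and TNFRSF1B (1.19 ± 0.20), called in the full fit and in each fit without 1 library.

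Interferon-stimulated genes had 10 of 64 higher (15.6%, against 7.05% of all genes) and 0 lower, with a median of 0.37. In 41 of the 64 the MAK683 libraries lay wholly above the tazemetostat libraries, against 16.2% of all genes. IDO1, which breaks down tryptophan, had 5.31, 4.44 and 2.99 CPM with MAK683, against 1.32, 0.965 and 0.776 CPM with tazemetostat and 0.633, 0.586 and 0.465 CPM with vehicle (2.05 ± 0.45, adjusted p 0.00581). SOCS3, a feedback inhibitor of cytokine signalling, rose by 1.28 ± 0.24, and LGALS9, a galectin, by 0.99 ± 0.21. The count was 4 without MAK683 library 1 or tazemetostat library 3 and 5 without tazemetostat library 1 or 2. Complement genes had 3 of 15 higher (20%, against 7.05% of all genes). C1S (1.48 ± 0.24) and C1R (1.16 ± 0.22), the proteases that start the classical pathway, were called in every fit without 1 library. CFB (0.98) was called in those without MAK683 library 2 or 3.

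**Figure D3:**
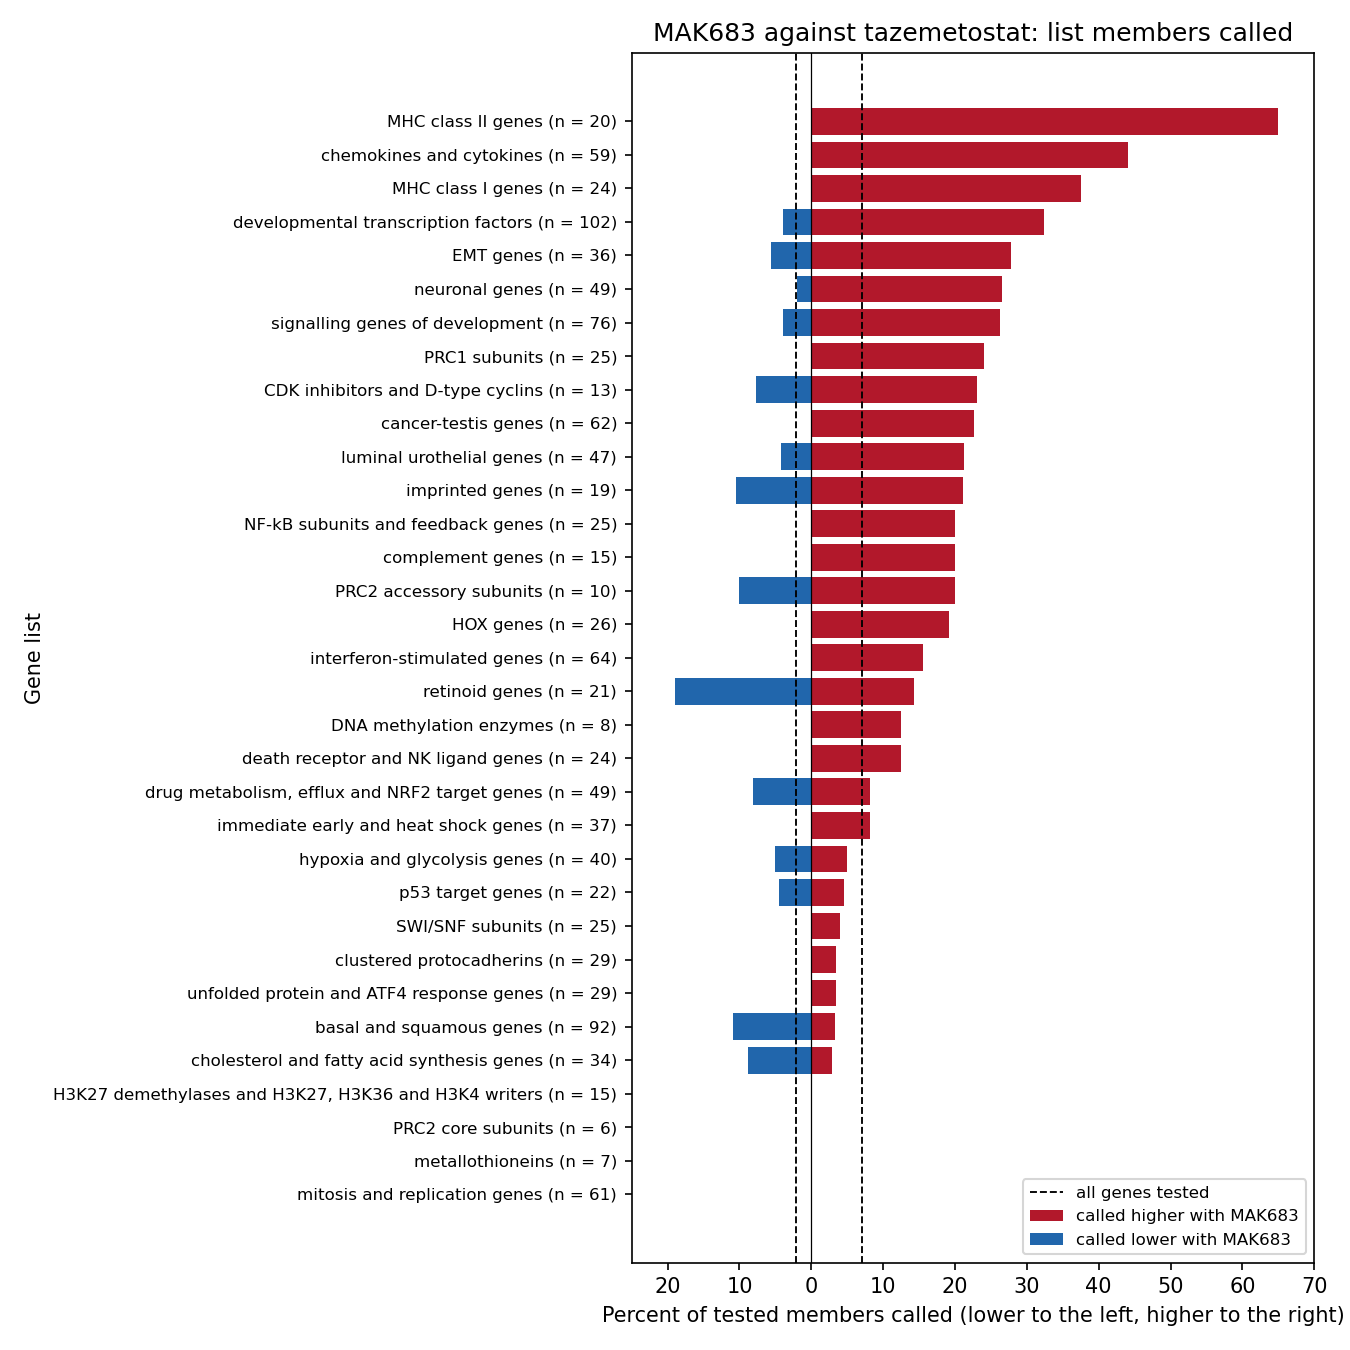
Percent of tested members of each gene list called higher (red) or lower (blue) with MAK683 against tazemetostat, with the number tested (n) beside each list; dashed lines mark the shares over all tested genes, 7.05% higher and 2.15% lower. MHC class II genes (65% higher) and chemokines and cytokines (44.1% higher) lie furthest right among the lists of tumour genes, and mitosis and replication genes have no member called.

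Developmental transcription factors, classic targets of PRC2, had 33 of 102 tested members higher (32.4%, against 7.05% of all genes). Another 4 were lower (3.92%, against 2.15%), and the median log2 fold change was 0.81. The other genes of the 172 listed were too low for the filter and were not tested. A gene low in vehicle passed only if some other group was higher, which favours rises among those tested. FOXA2, an endoderm factor, had 6.24, 8.25 and 7.26 CPM in MAK683 libraries, against 1.72, 0.844 and 1.38 CPM in tazemetostat libraries and 1.67, 1.26 and 2.33 CPM in vehicle libraries (2.46 ± 0.25, adjusted p 1.89e-06). TBX1, a pharyngeal T-box factor, had 6.73, 7.62 and 5.98 CPM with MAK683, against 1.64, 1.53 and 1.46 CPM with tazemetostat and 1.63, 1.05 and 1.91 CPM with vehicle (2.13 ± 0.25, adjusted p 1.06e-05). In both genes the tazemetostat and vehicle libraries overlapped and the MAK683 libraries stood apart.

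SALL4, a stem cell zinc finger factor, had 10.2, 8.30 and 11.5 CPM with MAK683, against 1.56, 1.81 and 1.42 CPM with tazemetostat and 0.452, 0.461 and 0.744 CPM with vehicle (2.64 ± 0.34, adjusted p 2.78e-05). EOMES, a T-box factor of early mesoderm, rose by 3.91 ± 0.50 at no more than 2.04 CPM. BARX2, already expressed in vehicle tumours, had 73.0, 73.2 and 78.9 CPM with MAK683, against 34.8, 31.6 and 27.3 CPM with tazemetostat and 32.3, 28.8 and 26.6 CPM with vehicle (1.26 ± 0.14, adjusted p 6.37e-06). The 4 that fell did so by less: OSR2 (-0.72), IRX2 (-0.46), PAX6 (-0.43) and GATA2 (-0.36), and of these OSR2 alone was called in every fit without 1 library. The list count was 23 to 29 higher and 1 or 2 lower in those fits, with 1 lower without MAK683 library 3 or tazemetostat library 1 and 2 without each of the other 4.

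HOX genes, which set position along the body axis, had 5 of 26 tested members higher (19.2%, against 7.05% of all genes) and 0 lower. Their median log2 fold change was 1.55 at low levels (0.78 without MAK683 library 1). The list held 39 genes, and the rest were too low for the filter. A gene low in vehicle passed only if some other group was higher, which favours rises in this count and median. HOXD11 had 1.61, 1.32 and 1.33 CPM in MAK683 libraries, against 0.0399, 0 and 0.0431 CPM in tazemetostat libraries and 0, 0 and 0.0465 CPM in vehicle libraries. That is a ratio of 51.4 between the compounds with a 95% counting interval of 13.8 to 432, because the tazemetostat libraries held no more than 3 counts together. HOXB7 had 4.20, 2.10 and 2.27 CPM with MAK683, against 0.359, 1.17 and 0.388 CPM with tazemetostat and 0.497, 0.168 and 0.140 CPM with vehicle (2.14 ± 0.48, adjusted p 0.00587). HOXD10 (3.45), HOXB2 (3.32) and HOXA3 (2.21) were also called, but all 3 lost their calls without MAK683 library 1 or tazemetostat library 1, and HOXD10 and HOXB2 also without tazemetostat library 2 or 3. The HOX count was 2 without MAK683 library 1 or tazemetostat library 1, 3 without tazemetostat library 2 or 3, and 7 without MAK683 library 2.

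Of 76 signalling genes of development, 20 rose (26.3%, against 7.05% of all genes) and 3 fell (3.95%, against 2.15%), with a median of 0.66. Among the ligands and antagonists of the TGF-beta family, FST, which binds and blocks activins, had 145, 98.6 and 112 CPM with MAK683, against 38.9, 36.8 and 46.1 CPM with tazemetostat and 33.7, 35.0 and 33.4 CPM with vehicle (1.54 ± 0.16, adjusted p 3.75e-06). The activin subunit genes INHBA (1.40 ± 0.18) and INHBB (1.38 ± 0.17) rose as well. BMP7 had 16.8, 17.3 and 18.1 CPM with MAK683, against 3.71, 3.10 and 4.22 CPM with tazemetostat and 3.25, 7.08 and 6.84 CPM with vehicle (2.24 ± 0.25, adjusted p 5.57e-06). DKK3, a member of the Dickkopf family, fell by 1.00 ± 0.21, and its call held in every fit without 1 library. JAG2, a Notch ligand, also fell (-0.60; lost without MAK683 library 1 or 3 or tazemetostat library 2 or 3), as did SEMA3E, a guidance cue (-1.18; lost without MAK683 library 2).

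MMP10, the matrix protease stromelysin 2, had 48.6, 48.3 and 54.8 CPM in MAK683 libraries, against 6.78, 5.06 and 7.97 CPM in tazemetostat libraries and 1.67, 3.31 and 2.60 CPM in vehicle libraries. The 3 groups did not overlap, with tazemetostat between vehicle and MAK683. The log2 fold change was 2.94 ± 0.20 between the compounds (adjusted p 3.26e-08) and 1.38 ± 0.22 for tazemetostat against vehicle (adjusted p 0.0814). The collagenase gene MMP1 had 136, 122 and 152 CPM with MAK683, against 24.3, 28.5 and 27.4 CPM with tazemetostat and 17.3, 16.3 and 14.2 CPM with vehicle (2.36 ± 0.25, adjusted p 3.62e-06), and MMP13, another collagenase, rose by 2.28 ± 0.26. TNC, the matrix protein tenascin C, rose by 1.22 ± 0.17. These belong to the EMT genes, linked to loss of epithelial character. Of 36 such genes, 10 rose (27.8%, against 7.05% of all genes) and 2 fell (5.56%, against 2.15%). The number higher was 10 in each fit without 1 library. Fibronectin, FN1, was among the falls (-1.14), a call lost without each of the 6.

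Cell type markers of stroma moved in both directions. PECAM1, an endothelial adhesion molecule, had 20.7, 20.4 and 25.8 CPM with MAK683, against 3.19, 3.26 and 3.23 CPM with tazemetostat and 2.49, 1.68 and 1.81 CPM with vehicle (2.79 ± 0.24, adjusted p 3.66e-07). In all, 4 of 11 tested endothelial markers rose (36.4%, against 7.05% of all genes): PECAM1, CLDN5, ROBO4 and EGFL7. The summed endothelial level was 96 to 117 CPM in MAK683 libraries, against 46.2 to 56.4 CPM in tazemetostat libraries and 38.8 to 41.8 CPM in vehicle libraries. Without tazemetostat library 1 or 2, 2 endothelial markers were called. Of 20 tested fibroblast and matrix markers, 5 rose (25%, against 7.05% of all genes) and 3 fell (15%, against 2.15%). The summed level was 2596 to 3854 CPM with MAK683, against 3850 to 4816 CPM with tazemetostat and 3686 to 5757 CPM with vehicle. COL6A1, a collagen VI chain, had 30.6, 24.7 and 21.2 CPM with MAK683, against 2.43, 2.41 and 2.5 CPM with tazemetostat and 0.994, 1.51 and 1.72 CPM with vehicle (3.38 ± 0.47, adjusted p 0.00011), and THY1 rose by 2.83 ± 0.45. COL6A2, COL6A3 and PDGFRA were the other 3 that rose, and COL1A2, FBN1 and FN1 fell, calls that were each lost in at least 3 of the 6 fits without 1 library. The count was 2 higher without MAK683 library 1 or tazemetostat library 1 or 3 and 3 without the others, and 0 lower without MAK683 library 1 or 3 or tazemetostat library 1 and 1 without the others.

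Adipocyte markers had 3 of 4 tested members higher (75%, against 7.05% of all genes): FABP4, LPL and PLIN4, the last lost without each of the 6 libraries. Of 11 adipocyte markers listed, only 4 passed the low-count filter, which favours rises among genes low in vehicle. The summed level was 33 to 34.5 CPM with MAK683, against 13.4 to 16.4 CPM with tazemetostat and 9.72 to 10.5 CPM with vehicle. The defining markers ADIPOQ and RETN had no count in any of the 9 libraries. Summed skeletal muscle markers overlapped, at 574 to 640 CPM with MAK683, 590 to 775 CPM with tazemetostat and 638 to 725 CPM with vehicle. The median log2 CPM of the 17 tested was uneven within groups, at 3.05, -0.36 and 4.14 in MAK683 libraries 1 to 3. It was 1.72, 3.83 and 1.83 in tazemetostat libraries and 2.71, -0.84 and 3.63 in vehicle libraries. Of the 17, 0 were higher and 1 lower (TNNT3, called in 1 of the 6 fits without 1 library, that without MAK683 library 2). The part of host cells in the rises above was not tested.

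Mitosis and replication genes lay within 2-fold between the compounds. MKI67, a proliferation marker, had 340, 297 and 395 CPM in MAK683 libraries, against 348, 378 and 327 CPM in tazemetostat libraries and 348, 331 and 409 CPM in vehicle libraries (log2 fold change -0.03 ± 0.14, 95% interval -0.32 to 0.27). Of 61 mitosis and replication genes, 0 were called by edgeR, DESeq2 or limma-voom, 5 had an unadjusted p under 0.05, and all 61 intervals lay within 2-fold. CDKN1C, a CDK inhibitor and known PRC2 target, did differ, with 25.9, 27.8 and 19.2 CPM with MAK683, against 5.39, 5.35 and 6.12 CPM with tazemetostat and 6.55, 7.21 and 6.14 CPM with vehicle (2.11 ± 0.19, adjusted p 8.92e-07). CCND2, a D-type cyclin, rose by 2.72 ± 0.30. Of the 13 genes in that list CCND1 also rose (0.74, lost without tazemetostat library 2) and CDKN2B fell (-0.41, lost without MAK683 library 1 or 2 or tazemetostat library 1).

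**Figure D4:**
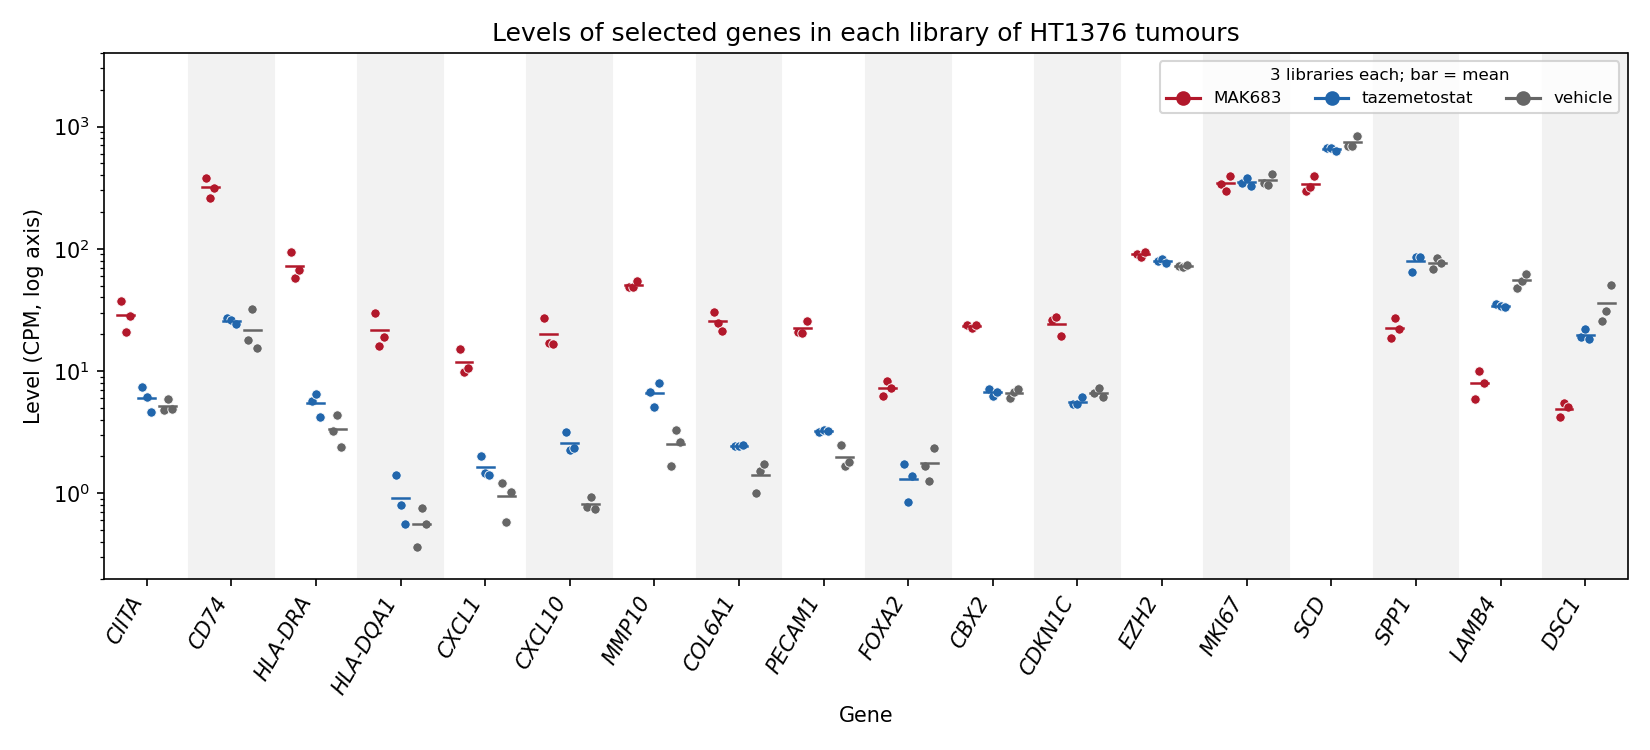
CPM (log axis) of 18 named genes in each MAK683, tazemetostat and vehicle library, 3 points per group, with a bar at the group mean. MAK683 points stand above the others for CIITA, CXCL1, MMP10, PECAM1, CBX2 and CDKN1C, below them for SCD, SPP1, LAMB4 and DSC1, and among them for MKI67.

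Of the lineage and germline lists, neuronal genes had 13 of 49 higher (26.5%, against 7.05% of all genes). The 1 lower was BEX2 (-0.54), a call that held only without MAK683 library 2. NEFM, a neurofilament subunit, had 4.07, 4.10 and 4.88 CPM with MAK683, against 0.997, 0.482 and 0.560 CPM with tazemetostat and 0.497, 0.503 and 0.372 CPM with vehicle (2.66 ± 0.39, adjusted p 9.82e-05). UCHL1, a neuronal ubiquitin hydrolase, rose by 2.44 ± 0.27, TUBB3, a neuronal tubulin, by 1.69 ± 0.29 and STMN3, of the stathmin family, by 1.35 ± 0.23. Cancer-testis genes, normally confined to the germ line, had 14 of 62 higher (22.6%, against 7.05% of all genes) and 0 lower. PRAME had 10.2, 8.35 and 7.92 CPM with MAK683, against 1.04, 0.844 and 1.25 CPM with tazemetostat and 0.678, 0.628 and 0.465 CPM with vehicle (3.07 ± 0.30, adjusted p 1.65e-06), and PAGE1, MAGEA11 and MAGEA10, all on the X chromosome, rose by 1.80 ± 0.20, 1.33 ± 0.17 and 1.03 ± 0.13. Without any 1 library, 10 to 14 of the cancer-testis genes were called. Among 19 imprinted genes, MEG3, a maternally expressed long RNA, had 5.06, 3.86 and 5.76 CPM with MAK683, against 0.239, 0.322 and 0.172 CPM with tazemetostat and 0.0904, 0.0838 and 0.0930 CPM with vehicle (4.28 ± 0.42, adjusted p 1.65e-06). GRB10 rose by 1.34 ± 0.24, and the paternally expressed PEG10 fell to 280, 311 and 336 CPM with MAK683, against 643, 619 and 628 CPM with tazemetostat (-1.03 ± 0.24, adjusted p 0.00897, lost without MAK683 library 1 at adjusted p 0.0526).

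Luminal urothelial genes, which mark the umbrella cell side of bladder epithelium, had 10 of 47 higher (21.3%, against 7.05% of all genes). In the same list 2 were lower (4.26%, against 2.15%). ST6GAL1, a sialyltransferase, had 5.06, 5.42 and 8.26 CPM in MAK683 libraries, against 0.16, 0.0804 and 0.0862 CPM in tazemetostat libraries and 0.0904, 0.0419 and 0.0930 CPM in vehicle libraries (5.76 ± 0.49, adjusted p 3.66e-07). TFF1, a secreted trefoil peptide, had 2.78, 4.69 and 1.83 CPM with MAK683, against 0.120, 0.121 and 0.0431 CPM with tazemetostat and no count with vehicle (4.94 ± 0.64, adjusted p 5.1e-05). The membrane mucin gene MUC4 rose by 2.99 ± 0.50. The umbrella cell gene UPK1B fell (-0.57), as did VGLL1 (-0.55), so this list moved in both directions. Both calls were lost without MAK683 library 1, MAK683 library 3, tazemetostat library 2 or tazemetostat library 3, and VGLL1 also without tazemetostat library 1, while 4 members were lower without MAK683 library 2.

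Basal and squamous genes went mainly the other way, with 10 of 92 lower (10.9%, against 2.15% of all genes) and 3 higher. LAMB4, a laminin chain, had 5.93, 9.91 and 8.03 CPM with MAK683, against 35.0, 34.2 and 33.5 CPM with tazemetostat and 48.0, 54.9 and 62.1 CPM with vehicle (-2.10 ± 0.37, adjusted p 0.000964). DSC1, a desmosomal cadherin of differentiated squamous layers, had 4.20, 5.47 and 5.10 CPM with MAK683, against 19.1, 21.9 and 18.1 CPM with tazemetostat and 25.4, 31.2 and 50.8 CPM with vehicle (-2.0 ± 0.40, adjusted p 0.0031). In both genes the 3 groups did not overlap, with tazemetostat between MAK683 and vehicle. The keratinisation genes CALML5 (-1.07), FLG (-0.97), KRT1 (-1.04) and KRT10 (-0.84) were also called, but each lost its call without MAK683 library 1 and at least 1 other library, and KRT1 without each of the 6. The basal cadherin gene CDH3 rose (0.51 ± 0.11, adjusted p 0.00276). The lower count for this list was 2 without MAK683 library 1, 3 without tazemetostat library 3, 5 without MAK683 library 3 or tazemetostat library 2, and 6 without MAK683 library 2 or tazemetostat library 1. The higher count was 1 without MAK683 library 2 or 3 or tazemetostat library 1 or 2, since KRT75 and S100A2 were lost there. The 13 skin keratinocyte and hair markers, which host skin could also supply, summed to 1506 to 2386 CPM with MAK683, against 3509 to 4601 CPM with tazemetostat and 4213 to 5862 CPM with vehicle, and the part of host skin was not tested.

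Metabolic genes supplied several of the falls at high expression. SCD, the desaturase that makes monounsaturated fatty acids, fell to 298, 321 and 393 CPM in MAK683 libraries, against 668, 667 and 627 CPM in tazemetostat libraries and 693, 697 and 840 CPM in vehicle libraries (-0.96 ± 0.18, adjusted p 0.00134). FADS1, which desaturates longer chains, fell by 0.63 ± 0.12. These were among 3 of 34 cholesterol and fatty acid synthesis genes lower (8.82%, against 2.15% of all genes), with 1 higher (2.94%, against 7.05%). The third fall was FADS2 (lost without MAK683 library 1, MAK683 library 3 or tazemetostat library 3). SLC7A11, the cystine importer, had 30.4, 28.9 and 34.1 CPM with MAK683, against 68.9, 83.8 and 62.4 CPM with tazemetostat and 102, 85.8 and 72.6 CPM with vehicle (-1.20 ± 0.22, adjusted p 0.000955). The drug efflux pump gene ABCG2 fell by 0.71 ± 0.13, and SULT1A1, a drug-sulfating enzyme, rose by 1.68 ± 0.17. In all, 4 of 49 genes of drug metabolism, efflux and NRF2 response rose (8.16%, near the 7.05% of all genes) and 4 fell (8.16%, against 2.15%), with 2 higher without MAK683 library 1 or tazemetostat library 2 or 3 and 2 lower without MAK683 library 1. Of 21 retinoid genes, 3 were higher (14.3%, against 7.05% of all genes) and 4 lower (19%, against 2.15%). LRAT, which stores retinol as ester, fell (-1.6 ± 0.35, adjusted p 0.00408) and RDH10, which makes retinal, fell by 0.58 ± 0.11. STRA6 and RARRES1 also fell, and RXRG, CRABP1 and CYP26B1 rose, each with a call lost in at least 4 of the 6 fits without 1 library, so that no retinoid gene rose without MAK683 library 1 or tazemetostat library 3.

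Among the largest changes outside these lists, F2RL2, a protease-activated receptor, had 2.22, 1.42 and 2.71 CPM with MAK683, against 0.0399, 0 and 0 CPM with tazemetostat and 0, 0.0838 and 0.0930 CPM with vehicle, a count ratio of 152 between the compounds with a 95% counting interval of 26.8 to 6069. GGT5, a gamma-glutamyl transferase, rose by 4.78 ± 0.64, the orphan receptor gene GPR50 by 4.22 ± 0.64 and the tetraspanin gene TSPAN18 by 4.16 ± 0.56. POPDC3 (4.05 ± 0.49) and BVES (3.79 ± 0.56), members of 1 family of cyclic AMP-binding membrane proteins that neighbour each other on chromosome 6, rose together. DACT2, an inhibitor of Wnt and nodal signalling, had a count ratio of 30.3 (9.93 to 151). SPP1, the secreted matrix protein osteopontin, fell to 18.5, 27 and 22.0 CPM in MAK683 libraries, against 64.3, 86.0 and 86.1 CPM in tazemetostat libraries and 68.4, 84.8 and 76.8 CPM in vehicle libraries (-1.81 ± 0.28, adjusted p 0.000193). The fatty acid receptor gene CD36 fell by 1.73 ± 0.35, the receptor phosphatase gene PTPRQ by 1.81 ± 0.33 and the matrix gene VIT by 1.80 ± 0.33. LINC02518 (-1.75), LINC01181 (-1.79) and LINC03013 (-2.17) also fell, the last with a call that held only without MAK683 library 2. Others of the 15 largest falls were TTC23L, ADAMTS5, PCDH18, GDPD2 and LUZP2, which lost their calls in 2 to 4 of those fits.

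The remaining lists had few members called, with shares higher near or below the 7.05% of all genes. Hypoxia and glycolysis genes had 2 of 40 higher (5%), CA12 (1.84 ± 0.25) and LOX (1.64 ± 0.33). Also 2 were lower, BNIP3L (held only without tazemetostat library 1) and P4HA1 (lost without each library), which is 5% against 2.15% of all genes. Their median log2 fold change was -0.23, with 6 of the 40 above 0. In 15 the MAK683 libraries lay wholly below the tazemetostat libraries (against 13.3% of all genes), and in 3 wholly above (against 16.2%). Of 29 unfolded protein and ATF4 response genes, 1 rose (3.45%; CEBPB, 0.54 ± 0.11, adjusted p 0.00297). Of 37 immediate early and heat shock genes 3 rose (8.11%; DUSP2, DUSP4 and KLF2). Among the fits without 1 library, DUSP2 lost its call without tazemetostat library 2, DUSP4 kept its call only without MAK683 library 2 or tazemetostat library 3, and KLF2 only without tazemetostat library 3, so the count was 0 without tazemetostat library 2 and 1 without MAK683 library 1, MAK683 library 3 or tazemetostat library 1. Of 22 p53 target genes 1 rose (AEN, 4.55%), called in none of the 6 fits without 1 library, and 1 fell (XPC, 4.55% against 2.15%), called in that without tazemetostat library 1 alone. Of 29 clustered protocadherin genes 1 rose (PCDHB2, lost without tazemetostat library 3), and of 7 metallothionein genes 0 were called by edgeR or limma-voom and 1 by DESeq2, with 2 at an unadjusted p under 0.05.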

How the data were processed

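RNA from HT1376 tumours was sequenced as paired 150 bp reads, 9 libraries per lane, from a TruSeq RNA v2 kit that the labels also call strand specific. The deposited values are raw counts per Ensembl gene. STAR 2.7.3a, RSEM 1.3.1 and hg38 are named in the submitters' processing notes. Which annotation release, counting program and strand setting were used, and whether mouse reads were removed, is not given in the sources used here, so overlapping and antisense genes are uncertain. Each table holds 57500 genes, and coordinates and names follow GENCODE 29 (GRCh38).

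Counts of all 21 libraries were fitted together in edgeR 4.0.16 (R 4.3.3; filterByExpr by group, TMM scaling, robust quasi-likelihood, 14 residual degrees of freedom, common biological coefficient of variation 0.163), leaving 21958 genes that hold 99.6% to 99.9% of counts. Tests are two-sided with Benjamini-Hochberg adjustment over all tested genes, and a gene is called at adjusted p under 0.05. The SE is the log2 fold change divided by the square root of F. CPM uses TMM-scaled totals. With 1 to 3 counts in a group, a count ratio with a 95% exact counting interval replaces the fold change. The one pair of compounds compared is MAK683 and tazemetostat.

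Named genes were EZH2, EZH1, EED, SUZ12 and ARID1A, the 15 largest rises and falls (called, at least 1 CPM in the higher group, no overlap of libraries) and up to 4 members of each gene list with the smallest p. Other genes were named after their values were seen, among them CIITA, CD74, HLA-DRA, CXCL5, CXCL2, MKI67, SALL4, BVES and the further called members of short counts. A few called members of these lists are not reported here by name. The members and lists were chosen with earlier results of these data known, so list counts are descriptions. They cover only members that passed the low-count filter, which favours rises among genes low in vehicle. The alternatives tried were DESeq2 1.42.0, limma-voom (limma 3.58.1), scaling by RLE or the upper quartile, all genes or those with 1 CPM in 3 libraries, a 1.5-fold test (glmTreat), the compared groups fitted alone, a block for replicate number, omission of libraries marked as resubmitted, a skeletal muscle covariate, omission of each library and, chosen after seeing the data, thinning of the MAK683, tazemetostat and vehicle libraries to 15890457 counts. On simulated data for MAK683 against tazemetostat (19754 genes), 19.4% of genes changed 1.5-fold, 86.6% of those changed 2-fold and 98.5% of those changed 4-fold were recovered, with 6 false among 142 calls. The simulation gave every gene the same spread. It changed 67, 67 and 66 genes at these folds, up or down, all at 1 CPM or more with tazemetostat. These rates therefore do not cover lower genes or genes with a wider spread.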

Additional observations from a re-analysis of the deposited data

How the results depend on the processing

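For MAK683 against tazemetostat, a test against a 1.5-fold change (glmTreat) called 701 genes higher and 21 lower, and omission of 1 library gave 1004 to 1300 higher and 199 to 337 lower, with fewer samples tested. For MAK683 against vehicle these were 1212 and 108 under glmTreat, and 1715 to 2001 higher and 639 to 813 lower without 1 library (679 without MAK683 library 1, 655 without MAK683 library 3, 696 without vehicle library 2, 639 without vehicle library 3). For tazemetostat against vehicle, where edgeR called 0 in each direction, DESeq2 called 5 higher, the fit without a low-count filter 43 higher and 3 lower, the fit of only the groups compared 11 higher and 1 lower, upper-quartile scaling 1 higher and omission of resubmitted libraries 3 higher, and without 1 library 0 to 1 were higher. The cause of these differences was not tested. Other settings kept the direct comparison within 1.5 times, at 1368 to 1976 higher and 354 to 624 lower. With replicate number as a block, 1422 were higher and 383 lower. Deviations of same-numbered libraries from their group means had correlations of 0.01, -0.28 and -0.07 between the compounds. For MAK683 and vehicle these were -0.05, 0.22 and 0.16, and for tazemetostat and vehicle -0.04, -0.14 and -0.16. With 3 libraries per group, so few values cannot settle whether the numbers pair the samples. Of 177 named genes past the threshold none reversed under any alternative, and 88 stayed past it under every alternative that tested them. With 1 library omitted 30 to 53 no longer passed, under glmTreat 87, thinned to equal depth 17 and under each other alternative 1 to 9.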
